A study of Mus musculus with 23 samples.

Results

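Transforming growth factor beta (TGF-beta) signalling was followed in 23 mouse mammary tumours through 8 genes, which code for its ligands (Tgfb1, Tgfb2, Tgfb3), its receptors (Tgfbr1, Tgfbr2) and the SMAD proteins that carry the signal to the nucleus (Smad2, Smad3, Smad4). They were taken by symbol from the normalised table, where each has 1 line, and are 8 of the 770 genes measured. The tumours were grown from E0771 cells, a mouse mammary carcinoma line carrying luciferase and a green fluorescent protein, injected intra-ductally into immunocompetent female C57BL/6J mice aged 6 to 8 weeks. Treatment started on day 9, and the mice were culled on day 23. The A group (5 tumours) received Anakinra, an antagonist of the receptor for interleukin-1, at 1 mg/kg daily. The DZ group (6 tumours) received doxorubicin, a cytotoxic anthracycline, at 2 mg/kg weekly and then zoledronic acid, a bisphosphonate, at 100 µg/kg weekly. The ADZ group (6 tumours) received all of these drugs, and the P group (6 tumours) received placebo. The cell line, the host strain and the site of injection were the same in the 4 groups. The study states that the A and DZ tumours came from separate animals, and where nothing says so, as for P and ADZ, p-values measure only the spread between these tumours.

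TGF-beta ligands are secreted in a latent form held by a propeptide and become active once they are freed from it. The active dimer binds the type II receptor (Tgfbr2), which phosphorylates the type I receptor (Tgfbr1), and this in turn phosphorylates Smad2 and Smad3, which enter the nucleus together with Smad4. In carcinomas the pathway is known both for restraining epithelial growth and for acting on fibroblasts, vessels and immune cells, and it works largely through changes of the proteins. The values here are transcript levels in whole tumours, in which fewer cells of a type and less RNA per cell cannot be told apart.

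Every value below is log2 of a count times 1 factor per tumour, where a difference of 1 is a 2-fold difference. Total counts over the 770 genes ran from 882537 to 1677295 per tumour, and the background, drawn 2 SD above the average of the 8 negative controls of a tumour, ran from 4.06 to 5.37. All 8 members lay above the background in 23 of 23 tumours. Since probes differ in efficiency, levels were compared between tumours and not between genes. Of the markers of the labelled epithelial tumour, Itga6, Itgb4 and Cdh1 were above the background in 23 of 23 tumours, Epcam in 21 and Muc1 in 18. P4 stood apart from the other tumours. Its panel median was 9.09, and its summed signal of 10 B cell and lymph node genes was 12.90, while no other tumour exceeded 8.93.

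The 20 reference genes and the 6 spiked positive controls divided the tumours into a first set of 12 and a second set of 11. The division crossed the treatment groups, with 2 of 5 A tumours, 3 of 6 DZ tumours, 3 of 6 ADZ tumours and 3 of 6 P tumours in the second set. The reference genes alone gave the same division for 23 of 23 tumours, and the positive controls alone for 19 to 21 of 23. The labels name no run or batch, so what the sets stand for is not known. The sets were found after the data had been seen, and each difference of a member was also taken with the set as a term of the fit and within each set.

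**Figure D1:**
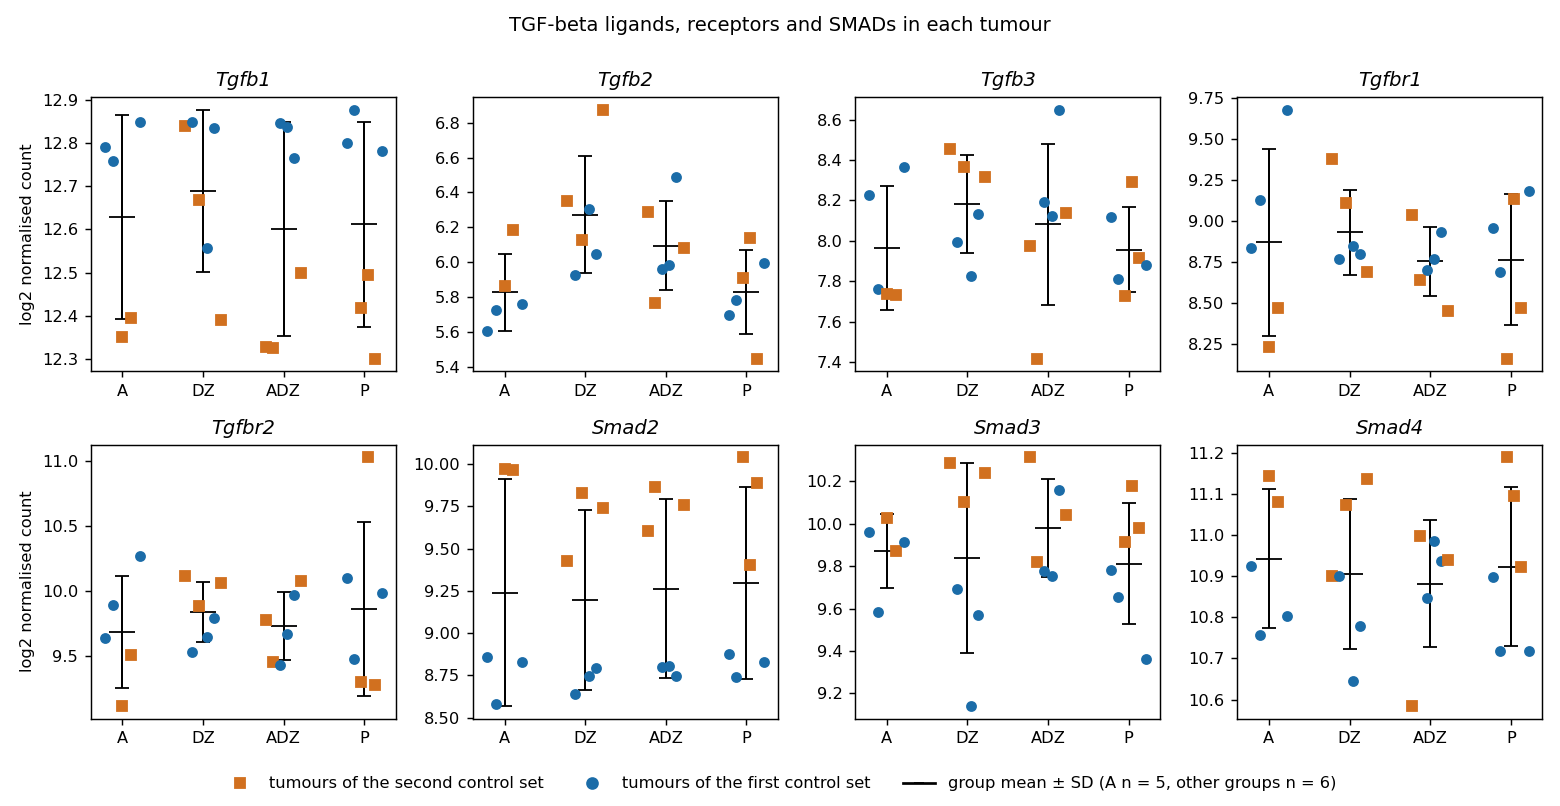
Level of each member, as log2 normalised count, in every tumour of the A, DZ, ADZ and P groups. Squares are tumours of the second control set, circles those of the first, and black bars give the group mean ± SD (5 A tumours, 6 in each other group). The groups overlap for every member, and Smad2 falls into separate bands by control set in each group.

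The 4 group means of a member lay close together, as the plot of levels by tumour shows. Over the 24 pairs of groups that are neighbours in the order of a member's means, the ranges overlapped in 24, the largest difference was 0.27 and the unadjusted limma p ran from 0.117 to 0.995. No neighbouring groups therefore differed beyond their spread. The members whose order is given below are described in this sense, as an order of means and not of separated groups.

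Tgfb2 codes for the TGF-beta2 ligand and was the member with the largest difference between groups. Its levels were 5.60, 5.72, 5.76, 5.86 and 6.18 in the A tumours. In DZ tumours the lowest, median and highest were 5.92, 6.21 and 6.88. In ADZ tumours they were 5.77, 6.03 and 6.49, and in P tumours 5.45, 5.85 and 6.14. All 6 DZ tumours were above the mean of P, and 3 of them were above every P tumour, while the lower DZ tumours lay within the range of P. Of the ADZ tumours, 5 of 6 were above the mean of P and 2 were above every P tumour.

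The group means of Tgfb2 were 5.83 ± 0.22 in A (SD, n = 5), 6.27 ± 0.34 in DZ, 6.09 ± 0.26 in ADZ and 5.83 ± 0.24 in P (SD, n = 6 each). The order was DZ, ADZ, P, A, with P and A 0.0012 apart. The gene was counted 45 to 101 times per tumour, and at the group medians of 57 counts in A, 70 in DZ, 65.5 in ADZ and 54 in P counting alone gives an SD of 0.19, 0.17, 0.18 and 0.20 on the log2 scale, close to the spread between the A or P tumours. Such counts lay 0.60 to 2.07 above the background of their own tumour.

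**Figure D2:**
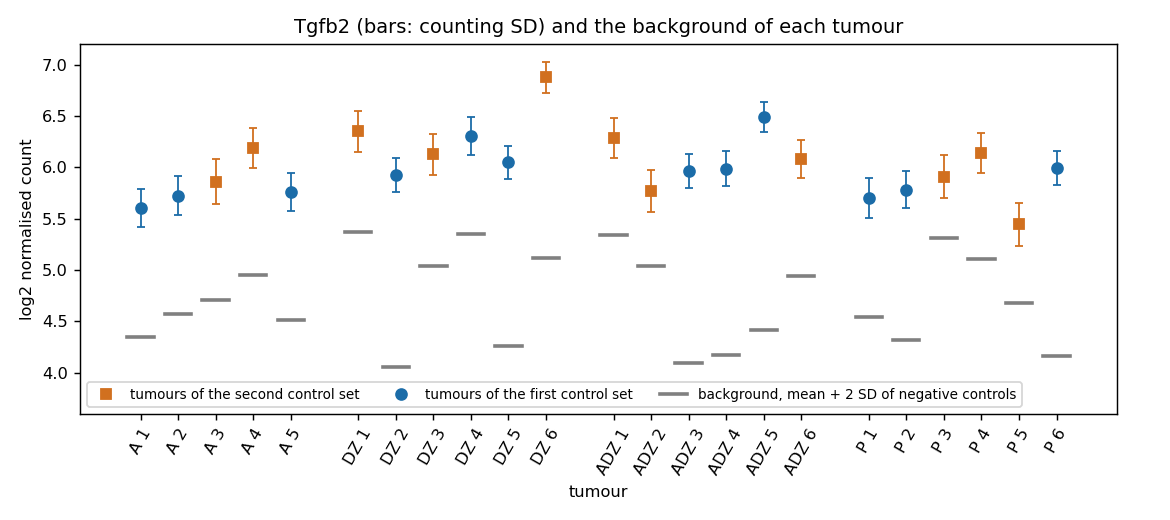
Tgfb2 in each of the 23 tumours, in log2 normalised counts, with bars for the SD that counting alone gives, squares for the second control set and circles for the first. Grey lines mark the background of the tumour, and every value lies above its own line, DZ6 being the highest at 6.88 and P5 the lowest at 5.45.

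The Tgfb2 gene lies on chromosome 1 (GRCm38.p6, 186622787 to 186709697). Its promoter is shown because Tgfb2 had the largest treatment differences, and that of Tgfb1 because this ligand had the largest difference between control sets of the 3. Each line gives the 100 bases just before the transcription start in the RefSeq table (GRCm38.p6), 5′ to 3′ along the gene, with capitals for TATAAA, which is the core of the TATA box, for the E-box CACGTG and for the GC box GGGCGG on either strand (chr1:186705990-186706089, minus strand, and chr7:25686902-25687001, plus strand).
Tgfb2: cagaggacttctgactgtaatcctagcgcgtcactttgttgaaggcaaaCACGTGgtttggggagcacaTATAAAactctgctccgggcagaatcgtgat
Tgfb1: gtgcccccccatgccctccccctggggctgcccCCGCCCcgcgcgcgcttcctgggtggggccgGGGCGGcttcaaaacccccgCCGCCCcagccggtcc
The Tgfb2 start used here lies inside the span of the gene, whose 5′ end on the minus strand is at 186709697. The stretch is thus not the promoter at that outer end, which was not examined. In the Tgfb2 stretch TATAAA begins at position -31 and the E-box at -51, where -1 is the base before the start. The Tgfb1 stretch holds no TATAAA and no E-box, and holds the GC box at -67, -36 and -16. Over 250 bases before the start, the GC content was 53.6% for Tgfb2 and 75.2% for Tgfb1. In windows of that length TATAAA was present in 12.4%, CACGTG in 6.02% and GGGCGG in 32.7% of 32851 promoters, counting both strands, and the motifs do not overlap in these stretches. Matching letters are a description and do not show that a factor binds.

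Set against placebo, Tgfb2 was 0.44 higher in DZ tumours (SE 0.16, 95% interval 0.10 to 0.78), or 1.36-fold. The limma p was 0.0129 and, adjusted over 770 genes, 1.0, and an exact two-sided permutation test of the 12 tumours gave p = 0.0173. It was 1 of the 8 members, and of 12 genes (1.56%) on the panel, with an unadjusted p under 0.05, and ranked 3 of 770 by p. The difference kept its sign with each of the 23 tumours left out, from 0.32 to 0.51, with an unadjusted p of 0.00627 to 0.0455. Only leaving out 1 of the 12 DZ and P tumours could change its size. With the control set as a term it was 0.44 (adjusted p = 0.967 by limma), a size fixed in advance, as DZ and P each had 3 tumours in either set. The difference was 0.62 within the second set and 0.27 within the first.

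The background moved with this result. Its median was 5.08 in DZ tumours, against 4.68 in ADZ, 4.57 in A and 4.61 in P, and over the 23 tumours Tgfb2 and the background had a Pearson's r of 0.42. After the mean of the negative controls had been subtracted, Tgfb2 was 0.52 higher in DZ than in P (adjusted p = 1.0 by limma). Endothelial markers were also higher. All 8 measured were higher in DZ than in P, by a median of 0.39, with 0 at an unadjusted p under 0.05, and their summed signal was 11.74 to 12.52 in DZ, 11.41 to 12.27 in ADZ, 11.56 to 12.07 in A and 11.50 to 12.07 in P. Markers of some other cells moved the same way in DZ minus P. Higher were 5 of 5 epithelial markers by a median of 0.22, 5 of 6 fibroblast and matrix markers by 0.28 and 3 of 3 platelet markers by 0.27. Others moved the opposite way. Lower were 6 of 7 T cell markers (median -0.24), 9 of 10 B cell and lymph node genes (-0.44) and the fat marker Cfd (-0.35). Macrophage and neutrophil markers were each 4 higher and 2 lower, with medians of 0.06 and 0.03, and the leucocyte marker Ptprc was at 0.09. The summed epithelial signal, led by Itga6 (median 13.40, with Itgb4 next at 7.97), was 12.99 to 14.06 in DZ and 12.56 to 13.70 in P. The part of these markers in the Tgfb2 difference was not tested.

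Over the tumours with and without Anakinra, Tgfb2 was higher in the tumours given doxorubicin and zoledronic acid. The level was 6.18 ± 0.30 in the 12 DZ and ADZ tumours and 5.83 ± 0.22 in the 11 P and A tumours (SD), with 11 of the 12 above the mean of the 11. The main effect was 0.36 (SE 0.12, 95% interval 0.11 to 0.60), or 1.28-fold. Its limma p of 0.00668 was the smallest of the 770, and its adjusted p was 0.999. Exact two-sided permutation of doxorubicin and zoledronic acid among the tumours with and among those without Anakinra gave p = 0.00329. Permutation p-values of Tgfb2 were not adjusted for the 8 members and the 9 comparisons, nor for the study's choice of Tgfb2 on the A and DZ tumours. It was 1 of 8 members and of 12 panel genes (1.56%) at an unadjusted p under 0.05. The effect was 0.32 within the second control set and 0.36 within the first, 0.35 with the set as a term (adjusted p = 0.995 by limma), and 0.30 to 0.40 with each tumour left out. The differences that make up this effect were not of the same size in the sets, though the difference between the sets was not tested. Only 2 A tumours were in the second set. In the second set DZ minus P was 0.62 and ADZ minus A was 0.02, with an interaction of -0.60 (SE 0.40, adjusted p = 0.992 by limma), and in the first set the differences were 0.27 and 0.45, with an interaction of 0.18 (SE 0.24).

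Between the drug arms, Tgfb2 was 0.44 lower in A than in DZ tumours, given as a difference of -0.44 (SE 0.19, 95% interval -0.85 to -0.04), or 0.735-fold. The limma p was 0.0349, the adjusted p was 0.995 and the p of an exact two-sided permutation test was 0.0260, and 1 of 8 members and 33 of 770 genes (4.29%) had an unadjusted p under 0.05. The panel as a whole was lower in A than in DZ, by a median of 0.13 on the log2 scale, as the panel difference of -0.13 shows. Relative to the panel median of each tumour, the Tgfb2 difference was -0.20 (adjusted p = 0.940 by limma), where the panel median of the difference became 0.11, so that Tgfb2 minus the panel was -0.32 on either scale. Within the control sets the difference was -0.43 in the second, where the panel median was -0.38, and -0.40 in the first, where it was 0.06. Leaving out 1 tumour gave -0.53 to -0.32, and the unadjusted p stayed under 0.05 in 4 of 11 such fits. The study chose Tgfb2 among other genes on these same A and DZ tumours, so that the A and DZ values are not independent evidence of its direction. DZ against P rests on the same DZ tumours, and the main effect of doxorubicin and zoledronic acid on the same A and DZ tumours, so neither is independent of that choice. For its choice the study asked for a false discovery rate under 0.05 and at least a 2-fold change, and the values given here reach neither.

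For Anakinra the Tgfb2 differences were smaller, and their sign depended on the scaling. A and P tumours differed by -0.0012 (SE 0.17, 95% interval -0.36 to 0.36), and ADZ and DZ tumours by -0.18 (SE 0.16, 95% interval -0.52 to 0.16). These differences were 0.22 and 0.03 relative to the panel median of each tumour, where those of the panel itself were 0.13 and 0.10. ADZ was 0.27 above P (SE 0.16) and 0.27 above A (SE 0.17), both with an adjusted p of 1.0 by limma, and the difference from P was 0.45 relative to the panel median, where that of the panel was 0.13. The interaction, in which the effect of Anakinra with doxorubicin and zoledronic acid is set against its effect without them, was -0.18 (SE 0.24). These intervals do not show that Tgfb2 was alike in the groups, but they all lie within a 2-fold difference.

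**Figure D3:**
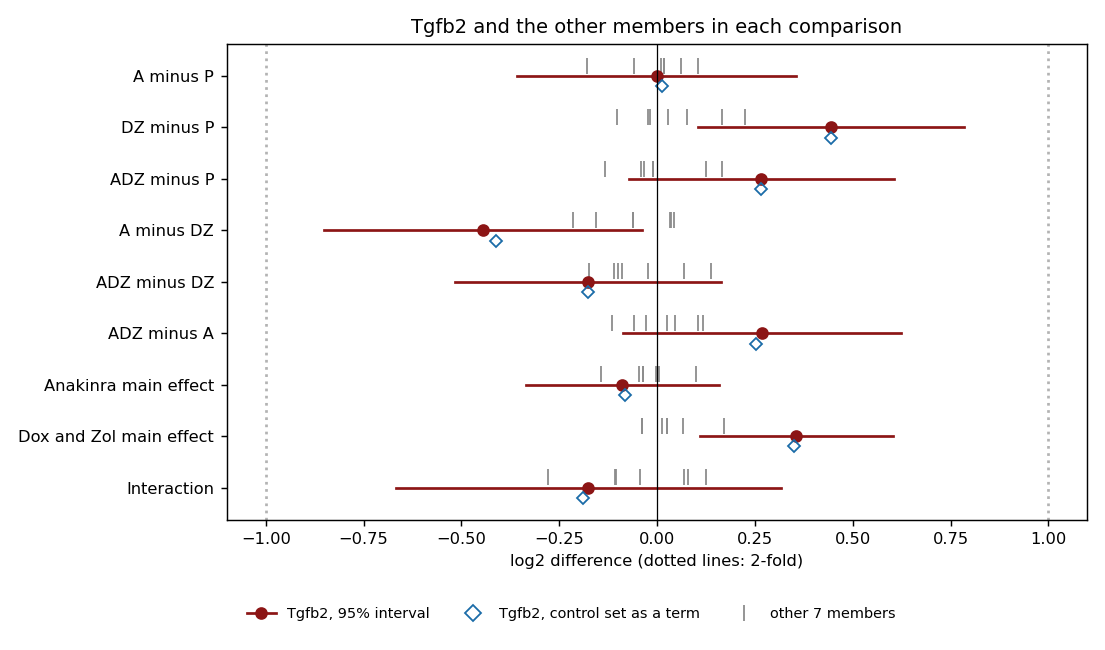
Log2 differences of Tgfb2 in the 9 comparisons, with 95% intervals from limma (red), the same with the control set as a term (open diamonds) and the differences of the other 7 members (grey ticks). Every Tgfb2 interval lies inside the dotted 2-fold lines, and those of DZ minus P, A minus DZ and the main effect of doxorubicin and zoledronic acid leave out 0.

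Tgfb1 codes for the ligand best known in immune regulation and lies on chromosome 7. It was counted 3561 to 9712 times per tumour, so that counting adds little to its spread. The A tumours were at 12.35, 12.39, 12.76, 12.79 and 12.85. The lowest, median and highest were 12.39, 12.75 and 12.85 in DZ, 12.33, 12.63 and 12.85 in ADZ, and 12.30, 12.64 and 12.88 in P. The ranges of the 4 groups were nearly the same. The group means were 12.63 ± 0.24 in A (SD, n = 5), 12.69 ± 0.19 in DZ, 12.60 ± 0.25 in ADZ and 12.61 ± 0.24 in P (SD, n = 6 each). Within each group the lower values were mostly those of the second control set, where Tgfb1 averaged 12.46 against 12.80 in the first set, a difference of -0.34 (SE 0.067), and the ranges of the sets overlapped.

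Tgfb3, the third ligand, was measured with 157 to 452 counts. The A tumours were at 7.73, 7.74, 7.76, 8.23 and 8.37. Lowest, median and highest values were 7.82, 8.22 and 8.46 in DZ, 7.42, 8.13 and 8.65 in ADZ, and 7.73, 7.90 and 8.29 in P. The order of its means was DZ (8.18 ± 0.24), ADZ (8.08 ± 0.40), A (7.97 ± 0.31) and P (7.96 ± 0.21; SD), which overlapped throughout. Tgfb3 was 0.22 higher in DZ than in P (SE 0.18), and its differences were -0.22 in A minus DZ (SE 0.18) and 0.17 for the main effect of doxorubicin and zoledronic acid (SE 0.13). Each of these had the sign seen for Tgfb2, and none passed the adjusted threshold. They depended on the control set. DZ minus P in Tgfb3 was 0.40 in the second set and 0.05 in the first, and A minus DZ was -0.64 in the second set and 0.14 in the first. A minus DZ turned to 0.02 relative to the panel median.

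Tgfbr1, the type I receptor kinase, spread most among the A tumours. These were at 8.23, 8.47, 8.84, 9.13 and 9.68, with an SD of 0.57, and held the highest value of the 23 tumours, in A5. Lowest, median and highest values were 8.69, 8.82 and 9.38 in DZ, 8.45, 8.74 and 9.04 in ADZ, and 8.16, 8.82 and 9.18 in P. The order of the means was DZ (8.93), A (8.87), P (8.76) and ADZ (8.76). The receptor differed by 0.10 in A minus P (SE 0.23), 0.17 in DZ minus P (SE 0.22) and -0.18 in ADZ minus DZ (SE 0.22). On the scale of the panel median the last was 0.03. Its interaction, -0.28 (SE 0.31), was the largest of any member.

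Tgfbr2, the type II receptor that binds the ligand, had its highest value in P4, the tumour with the high lymph node signal. The A tumours were at 9.12, 9.51, 9.64, 9.89 and 10.27. Lowest, median and highest values were 9.53, 9.84 and 10.12 in DZ, 9.44, 9.73 and 10.08 in ADZ, and 9.28, 9.73 and 11.03 in P. The mean of P, 9.86 ± 0.67, was thus raised by P4, and the other means were 9.69 ± 0.43 in A, 9.84 ± 0.23 in DZ and 9.73 ± 0.26 in ADZ (SD). A minus P was -0.18 with all tumours (SE 0.26), and 0.06 without P4. The main effect of Anakinra on Tgfbr2 was -0.14 (SE 0.18), and 0.07 relative to the panel median.

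Smad2, one of the receptor-activated SMADs, was the member whose level followed the control sets rather than the treatment. Its 11 tumours of the second set lay at 9.41 to 10.04 and averaged 9.77, against 8.58 to 8.88 and 8.77 in the 12 tumours of the first set. The ranges were separated by 0.53, and the difference with treatment in the fit was 1.01 (SE 0.077). Smad2 was 1 of the 8 members, and of 44 panel genes (5.71%), whose ranges did not overlap between the sets. It ranked 5 of 770 by the gap. The median size of the set difference was 0.21 over the members and 0.38 over the panel. Smad2 had itself drawn attention to the sets, so this is a description and carries no test.

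The same separation held inside each treatment group. The means of Smad2 in the second and first sets were 9.97 and 8.76 in A, 9.67 and 8.73 in DZ, 9.74 and 8.79 in ADZ, and 9.78 and 8.82 in P. Across treatments the means were 9.24 ± 0.67 in A (SD, n = 5), 9.20 ± 0.53 in DZ, 9.26 ± 0.53 in ADZ and 9.30 ± 0.57 in P (SD, n = 6 each). Taking the set into the fit lowered the residual SD of Smad2 to 0.16, against 0.57 without it. The count of Smad2 was 326 to 1023 per tumour, and over the 23 tumours its level had a Pearson's r of -0.80 with log2 of the total count and of 0.78 with the difference between the strongest and the weakest positive control. That control difference was 9.31 to 9.87 in the second set and 8.85 to 9.30 in the first. The part of depth in the Smad2 values was not tested.

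**Figure D4:**
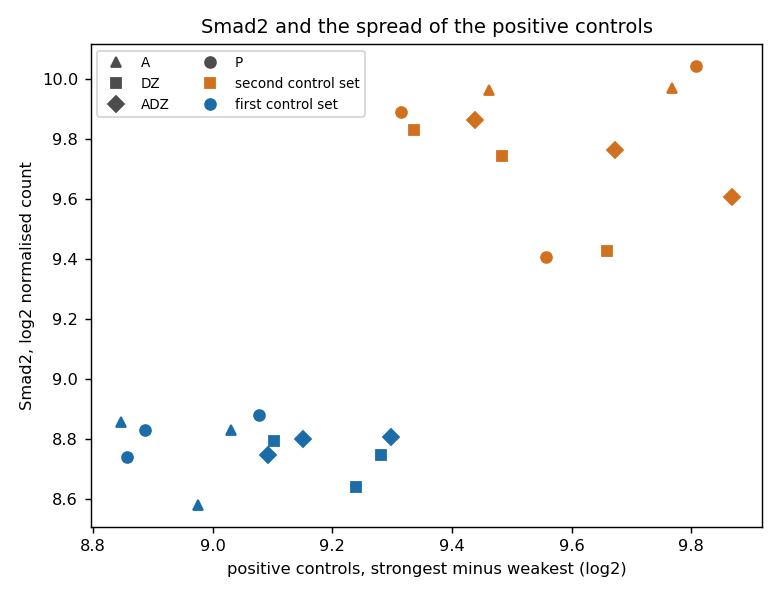
Smad2 (log2 normalised count) against the log2 difference between the strongest and the weakest spiked positive control, 1 point per tumour, with shapes for A, DZ, ADZ and P. The 11 tumours of the second control set (orange) lie at 9.31 or more on the horizontal axis and 9.41 or more on the vertical axis, and the 12 of the first set (blue) lie below them on both, in every treatment group.

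Smad3, the other receptor-activated SMAD, was at 9.58, 9.87, 9.91, 9.96 and 10.03 in the A tumours. Lowest, median and highest values were 9.14, 9.90 and 10.29 in DZ, 9.75, 9.93 and 10.31 in ADZ, and 9.36, 9.85 and 10.18 in P. The order of the means was ADZ (9.98 ± 0.23), A (9.87 ± 0.17), DZ (9.84 ± 0.45) and P (9.81 ± 0.28; SD). It was 0.17 higher in ADZ than in P (SE 0.18), 0.14 higher in ADZ than in DZ (SE 0.18) and 0.11 higher in ADZ than in A (SE 0.19), differences smaller than their standard errors. Relative to the panel median the first of these was 0.35 and the next 0.34 (SE 0.19 each), where the panel medians were 0.13 and 0.10. Smad3 was also higher in the second control set, at 10.07 against 9.70 in the first, with overlap.

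Smad4, the partner that both other SMADs share, varied least. The A tumours were at 10.76, 10.80, 10.93, 11.08 and 11.15. Lowest, median and highest values were 10.65, 10.90 and 11.14 in DZ, 10.58, 10.94 and 11.00 in ADZ, and 10.72, 10.91 and 11.19 in P. The group means were 10.94 ± 0.17 in A, 10.91 ± 0.18 in DZ, 10.88 ± 0.16 in ADZ and 10.92 ± 0.19 in P (SD), and its SD over the 23 tumours was 0.17, the smallest of the 8 members.

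No member passed an adjusted p of 0.05 in any of the 9 comparisons, and neither did any of the 770 genes (0% in each). The smallest adjusted p of a member by limma was 0.995. At an unadjusted p under 0.05, 0 of 8 members were found for A minus P (9 panel genes, 1.17%), ADZ minus P (11, 1.43%), ADZ minus DZ (8, 1.04%), ADZ minus A (1, 0.13%), the main effect of Anakinra (25, 3.25%) and the interaction (2, 0.26%), all by limma. Limma voom on the recovered counts called 0 genes at the adjusted threshold in each comparison as well. Of the 72 intervals of members, 71 lay within a 2-fold difference in either direction, the exception being the interaction of Smad2.

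The other members had small differences in the main fits, which took all tumours except for A minus DZ, fitted on the A and DZ tumours alone. Beside Tgfb2 and the pair with the smallest p, they differed by -0.06 to 0.06 in A minus P, -0.10 to 0.08 in DZ minus P, -0.13 to -0.01 in ADZ minus P and -0.06 to 0.04 in A minus DZ. They differed by -0.11 to 0.07 in ADZ minus DZ, -0.11 to 0.05 in ADZ minus A, -0.04 to 0.00 in the main effect of Anakinra, -0.04 to 0.03 in that of doxorubicin and zoledronic acid and -0.11 to 0.13 in the interaction. The median over the 8 members was 0.05 in DZ minus P, where the panel median was 0.04, and -0.06 in A minus DZ, where it was -0.13. In A minus P the members' median was 0.01 and that of the panel -0.09.

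A minus DZ was not alike in the control sets. In the second set, with 2 A and 3 DZ tumours, it was -0.71 in Tgfbr2 (adjusted p = 0.109 by limma), -0.71 in Tgfbr1 (adjusted p = 0.159) and -0.64 in Tgfb3 (adjusted p = 0.0874), where the panel median was -0.38. In the first set it was 0.28 in Tgfbr2, 0.41 in Tgfbr1 and 0.14 in Tgfb3, where the panel median was 0.06. The small difference of Tgfbr1 over all A and DZ tumours, -0.06 (95% interval -0.60 to 0.48), was thus a mean of opposite differences, and it was 0.18 relative to the panel median. The difference between the sets was not tested.

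Other genes of the pathway were counted from lists and not for how they moved. The lists held 38 different genes that were measured. None passed an adjusted p of 0.05 in any comparison by limma. At an unadjusted p under 0.05 there were 2 for A minus DZ, 1 for ADZ minus DZ and 1 for the main effect of Anakinra, each of them lower, and 0 for the other 6 comparisons. On the whole panel these comparisons had 33 (4.29%), 8 (1.04%) and 25 (3.25%) such genes, of which 32, 8 and 25 were lower. Thbs1 codes for thrombospondin-1, a matrix protein that can free TGF-beta from its latent form. It accounted for 1 in each of these 3 comparisons, at -0.89 in A minus DZ (SE 0.28, adjusted p = 0.743), -0.73 in ADZ minus DZ (SE 0.34, adjusted p = 1.0) and -0.67 for the main effect of Anakinra (SE 0.24, adjusted p = 0.997 by limma). Runx3, a transcription factor that binds SMADs, was the other in A minus DZ, at -0.77 (SE 0.35, adjusted p = 0.995 by limma). After recentring on the panel median Thbs1 was at -0.65, -0.53 and -0.46 in these comparisons and Runx3 at -0.53. Platelets also carry thrombospondin-1, and their markers were lower as well. All 3 measured (Itga2b, Itgb3 and Ppbp, of which Itgb3 is also on the list of activators) were lower in the same comparisons, by medians of -0.76, -0.70 and -0.58, and 2 of 3 were lower relative to the panel median. This was not particular to platelets. In A minus DZ, 8 of 8 endothelial markers (median -0.50), 6 of 6 neutrophil (-0.47) and 6 of 6 macrophage markers (-0.36) were lower too. Of the marker lists only that of fat, with Cfd at 0.62, had a median above 0. Itga2b, an integrin chain of platelets, was at -0.76 in A minus DZ (SE 0.18, adjusted p = 0.347 by limma) but lay above the background in only 5 of 23 tumours. Thbs1 and Itga2b, like Tgfb2, are among the genes the study chose on the A and DZ tumours. The 3 comparisons given for Thbs1 use A or DZ tumours, so these values are not independent evidence of its direction or that of Itga2b. The summed platelet signal was 10.31 to 10.60 in A, 10.26 to 11.17 in DZ, 10.02 to 11.17 in ADZ and 9.93 to 11.65 in P. By median level Itgb3 (10.23) weighs more in this sum than Ppbp (7.71) and Itga2b (4.21). The part of platelets in the Thbs1 values was not tested.

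The lists of activators and carriers of latent TGF-beta, and of known TGF-beta targets, held no gene past an adjusted p of 0.05 between the drug arms. All 4 measured activators and carriers were lower in A than in DZ, by a median of -0.31, and 9 of 10 measured targets were lower, by a median of -0.24, where the panel median was -0.13. After recentring on the panel median of each tumour these lists had medians of -0.07 and 0.00, with 2 of 4 and 5 of 10 genes lower, where the panel median was 0.11, so that they lay as far below the panel as before. In DZ minus P, 7 of the 10 targets were higher, with a median of 0.12. Of these targets, Col4a1, a basement membrane collagen, differed by 0.33 in DZ minus P (SE 0.26) and Col3a1, a fibrillar collagen, by 0.29 (SE 0.36). Fibroblast and matrix markers were also lower in A. All 6 measured were lower in A than in DZ, by a median of -0.40 (5 of 6 and -0.16 relative to the panel median), with summed signals of 13.03 to 14.18 in A, 13.19 to 14.91 in DZ, 12.69 to 14.65 in ADZ and 13.05 to 15.76 in P, the list sharing Col1a1, Col3a1, Fn1 and Thy1 with the targets. The part of these markers in the target values was not tested. Of 13 kinases outside the SMAD route, 9 were higher and 4 lower in A than in DZ, with a median of 0.01, and of 10 nuclear partners of SMADs, 5 were higher and 5 lower. Recentring, which adds 0.24 to every gene of this comparison, put all 13 kinases and 8 of the 10 partners above 0.

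Across the 23 tumours some members varied together. These correlations are descriptions over tumours that share the normalisation, the treatment groups and the control sets. The receptors Tgfbr1 and Tgfbr2 had the highest Pearson's r of the 28 pairs, 0.68, and it was 0.72 after each control set had been centred on its own mean and 0.40 relative to the panel median. Tgfb3 and Tgfbr2 had an r of 0.59, which was also 0.59 within centred sets. Smad2 followed another pattern. Its r with Tgfb1 was -0.84, the lowest of all pairs, but -0.40 with the sets centred and -0.13 relative to the panel median, and its r with Smad3 was 0.56 but -0.30 with the sets centred. The median r over the 28 pairs was 0.17, beside 0.19 over all pairs of panel genes.

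**Figure D5:**
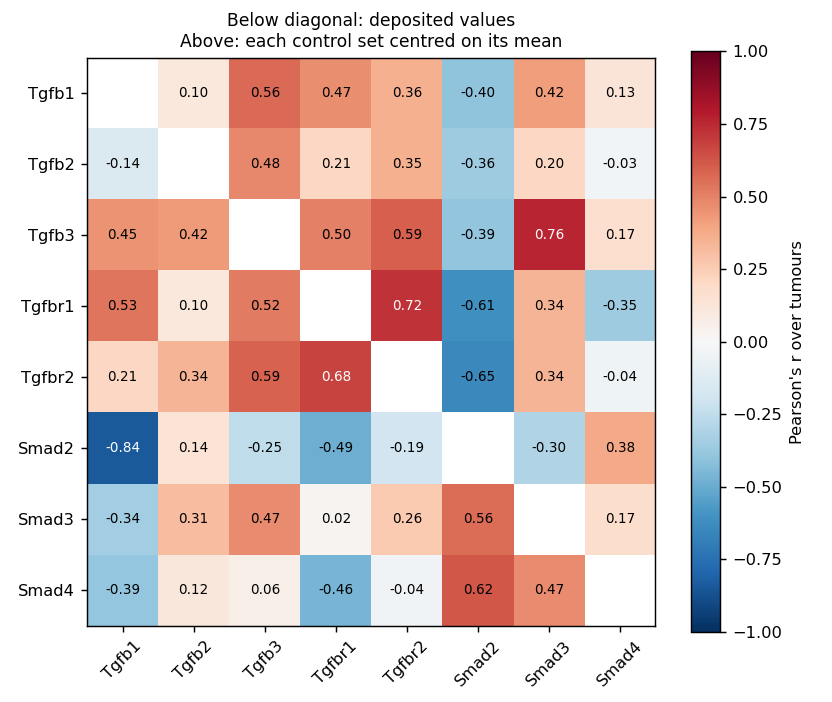
Pearson's r between members over the 23 tumours, on the deposited values below the diagonal and with each control set centred on its own mean above it. Tgfbr1 and Tgfbr2 stay at 0.68 and 0.72, while Smad2 with Tgfb1 is at -0.84 below and -0.40 above the diagonal.

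The panel genes whose levels were most like those of a ligand or receptor were found in the same way, over 23 tumours. For Tgfb1 they were Cd164, a sialomucin (r = 0.94), Mfge8, a bridging molecule in the clearance of dying cells (0.91), and Itgb1, an integrin chain (0.88). When taken relative to the panel median, Cd164 stayed first (0.96), and Raet1 was at 0.95. With each control set centred on its own mean, the r of Tgfb1 was 0.82 with Cd164 and 0.54 with Raet1. For Tgfb3 they were Kdr, a receptor for vascular endothelial growth factor (0.82), Clu, which codes for clusterin (0.79), and Ifnar1, a chain of the type I interferon receptor (0.78). Relative to the panel median they were Clu (0.84), Ifnar1 (0.81) and Pdgfrb, a receptor of mural cells and fibroblasts (0.81).

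Tgfb2 had no such close companion on these low counts. Counting alone gives it an SD of 0.19 at its median count, beside an SD of 0.32 over the 23 tumours. Such noise lowers any r, and its part here was not tested. Its highest r were with Il1rl1, the receptor for interleukin-33 (0.68), Il3ra, a chain of the interleukin-3 receptor (0.65), and Il4 (0.63), which lay above the background in 0 of 23 tumours. Relative to the panel median they were Rsad2 (0.63), Bst2 (0.62) and Il1rl1 (0.62), and without P4 those of Rsad2 and Bst2 were 0.45 and 0.37. For Tgfbr1 the genes included Mertk, a receptor by which macrophages take up dying cells (0.85), and H2-K1, an MHC class I chain (0.82). Relative to the panel median they were H2-K1 (0.81), Tapbp (0.78) and Ly9 (0.77). For Tgfbr2 they were Nrp1, a co-receptor of vascular growth factors (0.94), Il16, a cytokine (0.91), and Thy1, a surface glycoprotein of T cells and fibroblasts (0.91). The same genes came first relative to the panel median, at 0.82, 0.77 and 0.79, and without P4 the r on deposited values were 0.91, 0.85 and 0.86.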

How the data were processed

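RNA of 23 primary tumours was hybridised to an nCounter panel of mouse cancer immunity genes, in which barcoded probes are counted without amplification. The authors used version 4.0 of nSolver and deposited log2 values, normalised so that the 20 reference genes average the same in every tumour. Nothing in the sources used here says whether background was subtracted. Dividing out 1 factor per tumour (0.759 to 1.57) gave whole counts within 0.05 for 100% of values other than 6 log2 values of exactly 0. Factors, like background, were computed from the deposited table.

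Differences in log2 level between groups came from linear models (limma 3.58.1, R 4.3.3; two-sided moderated tests, all 770 genes kept and their p-values adjusted together by Benjamini-Hochberg, threshold 0.05), A minus DZ on its 11 tumours and all else on 23. Tgfb2 was also tested by exact permutation over tumours. The script was tested on simulated data. Intervals and counting SDs cover the tumours or the counting only. Promoters were matched by symbol for 5 of the 8 members, Tgfbr1 at more than 1 start and Tgfb2 at a start inside the span of its gene. Members and gene lists were chosen with earlier results of these data known. Named by rule were all members, for differences Tgfb2 and the 2 other members with the smallest p in a comparison, the 2 genes with the smallest p in a pathway list, and the 3 panel genes with the highest r to a ligand or receptor, some of which are not reported here. The study's own list holds Tgfb2, Thbs1, Itga2b and Bst2. Alternatives were a pseudocount of 1, filters at means of 20 and 50, recentring, quantile normalisation, raising values to the background, other tumours in the fit, an intensity trend, voom on counts, the replicate number as a block, leaving out each tumour and, chosen after seeing the data, the control sets and subtraction of the negative controls. Figures used matplotlib 3.10.9 and pandas 2.3.3.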

Additional observations from a re-analysis of the deposited data

Results flagged for a closer look

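Of the 32 sets of values formed by 8 members in 4 groups, 1 held a value far from the others. In ADZ1, Smad4 was at 10.58, while the other ADZ tumours were at 10.85 to 11.00, and its gap to the nearest was 0.637 of the range of the group, above Dixon's 95% critical value. Chance flags about 1 in 20 such sets. ADZ1 belongs to the second control set, in which Smad4 was otherwise 10.90 to 11.19.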

How the results depend on the processing

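Of 954 recomputed differences of Tgfb2 and of the 2 other members named in a comparison, 916 kept their sign and 38 turned, and the cause was not tested. In this count and the next, part of the recomputed differences could not turn. The filters, the intensity trend and other tumours in the fit do not change the size of a difference. Nor does leaving out a tumour of a group that is not compared. Over all 8 members, 291 of 2544 turned. None passed an adjusted p of 0.05 under any alternative run, the smallest being 0.0874 for A minus DZ in Tgfb3 in the second control set alone. A minus P in Tgfb2, -0.0012 on all tumours, was 0.22 after recentring on the panel median, 0.26 after quantile normalisation, 0.0021 with voom, 0.013 with the control set as a term, 0.19 in the second set alone, 0.027 after subtraction of the negative controls and 0.049 with the replicate block. Recentring also turned A minus P in Tgfbr2 to 0.039, A minus DZ in Tgfb3 to 0.025 and in Tgfbr2 to 0.085, ADZ minus DZ in Tgfb2 to 0.027 and in Tgfbr1 to 0.028, and the main effect of Anakinra to 0.12 in Tgfb2 and 0.067 in Tgfbr2. Quantile normalisation gave 0.10 for that effect in Tgfb2. The first set alone gave A minus P in Tgfbr2 of 0.078, DZ minus P in Tgfbr1 of -0.14, A minus DZ of 0.14 in Tgfb3 and 0.28 in Tgfbr2, ADZ minus DZ in Tgfb2 of 0.053, 0.057 for the main effect of Anakinra in Tgfbr2, -0.027 for that of doxorubicin and zoledronic acid in Smad3, and interactions of 0.090 in Tgfb1 and 0.18 in Tgfb2. The second set alone gave A minus P in Tgfbr1 of -0.24, ADZ minus P in Tgfb3 of -0.13, ADZ minus DZ in Smad3 of -0.15 and the main effect of Anakinra in Smad3 of -0.11, and for A minus DZ, -0.64 in Tgfb3 and -0.71 in Tgfbr2, opposite to the first set. With each tumour left out, A minus P ran from -0.091 to 0.061 in Tgfb2, -0.098 to 0.26 in Tgfbr1 and -0.32 to 0.055 in Tgfbr2, and ADZ minus DZ in Smad3 from -0.00063 to 0.23.

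The count of genes past an adjusted p of 0.05 stayed at 0 except for the main effect of doxorubicin and zoledronic acid in the second set alone, where it was 1, Fcgr4 (1.09, adjusted p = 0.0402 by limma, and 0.10 on all tumours), named after its value was seen. Like-numbered tumours varied together (r over 0.1) in 12 of 33 pairs. The values compared still hold the control sets, so this count cannot decide whether the numbers pair tumours. The replicate block gave A minus DZ in Tgfb2 of -0.32 (adjusted p = 1.0 by limma) and changed no call. With 5 or 6 tumours a group the intervals of members reach up to about a 2-fold difference, and low counts limit Tgfb2 most.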

Other observations

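Genes around the pathway that are not members also separated by control set, given here as values with no test. Atf2, a transcription factor that can act with SMADs, was at 9.94 to 10.40 in the second set and 9.22 to 9.53 in the first. Map3k7, which codes for the kinase TAK1 of the route outside SMADs, was at 9.68 to 9.94 in the second set and 9.28 to 9.56 in the first. Snai1, a known target, was at 7.60 to 8.62 in the second set and 7.04 to 7.49 in the first. The reference gene Tubb5, which took part in defining the sets, was at 13.24 to 13.87 in the second set and 12.56 to 12.84 in the first. Over the whole panel, 44 of 770 genes (5.71%) had ranges that did not overlap between the sets, and the share among the listed pathway genes is not given here. The genes named were singled out after their values had been seen.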
